A study of Mus musculus with 22 samples.

Results

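Pectin was compared with cellulose among mice that drank PFOS. The comparison used 8 of the 22 intestinal RNA sequencing libraries of the series, picked by the group in their titles: 4 Pectin_PFOS libraries and 4 PFOS libraries. PFOS is perfluorooctanesulfonic acid, a persistent fluorinated surfactant. All groups were male wild-type C57BL/6 mice, an inbred strain, that were 7 weeks old at the start and ate an irradiated diet for 7 weeks. That diet held 8% fibre by weight, with 35% of its energy as fat, 20% as protein and 45% as carbohydrate. The Pectin_PFOS mice ate pectin and the PFOS mice ate cellulose, and both drank water with PFOS, dosed at 3 µg/kg a day. Beside them stand the groups Pectin (pectin, titled without PFOS, n = 4), Control (cellulose, titled without PFOS, n = 4) and Inulin_PFOS (inulin with PFOS, n = 3). A treatment field names PFOS for every sample, so exposure was read from the group in the title. The labels name intestinal tissue without a segment or wall layer, and they do not say that each library is a separate mouse. The p-values therefore measure the spread between these libraries, which may be in part technical.

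Pectin is a soluble galacturonan of plant cell walls that gut bacteria ferment to short-chain fatty acids, whereas cellulose is largely left unfermented. The intestinal epithelium meets bacteria with secreted lectins and antimicrobial proteins, with hydrogen peroxide and nitric oxide made at its surface, with mucus, and with IgA that the polymeric immunoglobulin receptor carries across the cell. Interferons switch on a shared set of antiviral genes, and they raise the machinery that loads peptides on MHC class I. Absorptive enterocytes display peptidases, disaccharidases and transporters on the brush border. Their secreted and membrane proteins fold in the endoplasmic reticulum with the help of chaperones.

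The 8 libraries held 17954912 to 20261370 estimated counts each. Epithelial genes were abundant in all of them: Vil1, which encodes the brush border protein villin, stood at 5626, 4349.7, 4773 and 4144 CPM (counts per 1000000 counts of the library, scaled by the trimmed mean of M-values) in Pectin_PFOS, against 2525, 2778, 2211 and 2726 CPM in PFOS. Fabp6, the bile acid binding protein of the ileum, was at 5063, 2819, 3445 and 4132 CPM in Pectin_PFOS and at 1549, 3310.4, 3120.1 and 1792 CPM in PFOS. Of 14 colon markers 4, Hoxd13, Hoxd12, Hoxb13 and Prdx6b, had 0 counts in all 8 libraries, and the list summed to 1959 to 4074 CPM in Pectin_PFOS, against 336 to 535 CPM in PFOS. The list of proximal small intestine markers summed to 748 to 1367 CPM in Pectin_PFOS, against 598 to 2289 CPM in PFOS. The list of ileum markers, Fabp6 among them, summed to 5839 to 9632 CPM in Pectin_PFOS, against 3667 to 6231 CPM in PFOS. That sum lay above the colon and proximal sums in each library. The colon list includes Saa1, a defence gene treated below. The tissue label is thus met by epithelial markers. Sums over different genes do not rank the segments, so the segment stays unsettled. The groups stood apart in their general measures. Scaling factors were 0.749 to 1.002 in Pectin_PFOS, against 1.109 to 1.207 in PFOS. Between 12927 and 14385 genes reached 10 counts in Pectin_PFOS, against 14706 to 14931 in PFOS. Mitochondrially encoded genes took 2.85% to 3.51% of the counts in Pectin_PFOS, against 4.26% to 9.16% in PFOS. Pectin_PFOS replicate 1 lay apart from the other libraries, with the fewest genes detected, the lowest scaling factor and a score of −58.5 on the second principal component.

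Of 15763 genes tested with edgeR's quasi-likelihood test, 2526 differed between Pectin_PFOS and PFOS at a Benjamini-Hochberg adjusted p under 0.05, which is 16.0% of the genes. There were 1213 higher in Pectin_PFOS, which is 7.70%, and 1313 lower, which is 8.33%. At 2-fold or more, 416 were higher and 1050 were lower. The number called was 1283 without Pectin_PFOS replicate 1, 1631 without Pectin_PFOS replicate 2, 1538 without PFOS replicate 2 and 1265 without PFOS replicate 3. Over all genes tested, the log2 fold change had a median of −0.03. This balance depends on the scaling: with library totals alone the median of all genes was −0.41, and 299 genes were called higher against 3530 lower. The limma tests on TPM (length-scaled transcript levels) also lacked trimmed-mean scaling, and their medians were −0.31, −0.38 and, unfiltered, −0.11. Under these settings lower calls far outnumbered higher ones, so a rise lost or a fall kept there does not tell test from scaling. Changes below are relative to the trimmed-mean scaling, and calls under library totals are given for most gene groups. The gene lists below were chosen with earlier results of these data known. Their shares of calls, set beside those of all genes, thus describe the lists and test nothing. In the same 8 libraries, 12.0% of the genes had all 4 Pectin_PFOS values above all 4 PFOS values, and 14.5% had all 4 below.

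The genes of epithelial defence were higher with pectin. Of 27 tested members of the list of antimicrobial and epithelial defence genes, 15 rose and 0 fell, against 7.70% and 8.33% of all genes, and 24 had a positive log2 fold change. Their median was 1.68 on the log2 scale, against −0.03 for all genes. The members summed to 52188 to 90736 CPM in Pectin_PFOS, against 5681 to 16938 CPM in PFOS. With library totals 14 rose, and leaving out single libraries gave 13 to 15.

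Reg3g (chromosome 6, 78466269 to 78468872, GRCm38) encodes a secreted C-type lectin that kills Gram-positive bacteria. Its level was 28004, 27989, 14139 and 15804 CPM in the Pectin_PFOS libraries, against 848, 445, 2834 and 722 CPM in the PFOS libraries. Every Pectin_PFOS value lay above every PFOS value, and PFOS replicate 3 was the highest of its group. The log2 fold change was 4.15 ± 0.88 (SE) with an adjusted p of 0.00574 in edgeR. Its neighbour Reg3b, chosen after its values were seen, stood at 36990.1, 45675, 22078 and 25463 CPM in Pectin_PFOS, against 1995, 1025, 8438 and 2667 CPM in PFOS, a log2 fold change of 3.20 ± 0.77 (adjusted p 0.0105). Reg3 genes are close paralogs, and reads may be shared between them. Lypd8 (chromosome 11, 58379043 to 58390728) encodes a secreted protein that binds flagellated bacteria in the mouse colon. It was at 4037, 4013, 2588 and 2387 CPM in Pectin_PFOS, against 729, 384, 631 and 489 CPM in PFOS (log2 fold change 2.54 ± 0.39, adjusted p 0.00089).

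Duox2, Duoxa2 and Nos2, members of the defence list that act in making reactive oxygen or nitrogen species, rose as well. Duox2 (chromosome 2, 122279247 to 122298165), the hydrogen peroxide making dual oxidase, was at 425, 719.7, 653 and 535 CPM in Pectin_PFOS, against 63.4, 43.7, 96.4 and 25.5 CPM in PFOS. The groups did not overlap, with a log2 fold change of 3.35 ± 0.48 and an adjusted p of 0.00064. Its maturation factor Duoxa2 had a log2 fold change of 4.16 ± 0.72 (adjusted p 0.00194). On either strand, 42.8% of the exonic bases of Duoxa2 overlap those of Duoxa1, so part of the reads may be shared. Nos2 (chromosome 11, 78920787 to 78960254), the inducible nitric oxide synthase, was at 542, 999, 1802 and 691 CPM in Pectin_PFOS, against 41.4, 68.6, 54.7 and 65.6 CPM in PFOS. Pectin_PFOS replicate 3 was the highest of the 8, and even the lowest Pectin_PFOS library exceeded the highest PFOS library (log2 fold change 4.13 ± 0.58, adjusted p 0.00064).

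Pigr (chromosome 1, 130826684 to 130852249), the polymeric immunoglobulin receptor, was at 2354, 3038, 3108 and 3131 CPM in Pectin_PFOS, against 284, 199, 227 and 427 CPM in PFOS. That is a log2 fold change of 3.35 ± 0.46 with an adjusted p of 0.000631, and the lowest value in Pectin_PFOS was that of replicate 1. Fut2 (chromosome 7, 45648595 to 45666308), the fucosyltransferase that decorates the epithelial surface with fucose, was at 48.3, 104, 23.4 and 39.2 CPM in Pectin_PFOS, against 4.20, 1.59, 5.15 and 0.767 CPM in PFOS (log2 fold change 4.19 ± 0.78, adjusted p 0.0032). Saa1, a serum amyloid A gene, was at 2103, 2727, 897 and 1504 CPM in Pectin_PFOS, against 25.99, 8.62, 142 and 13.7 CPM in PFOS, where replicate 3 was highest (log2 fold change 5.25 ± 1.30, adjusted p 0.0128). Serum amyloid genes are near-identical, and their split is uncertain. Ltf, which encodes the iron-binding protein lactotransferrin, had a log2 fold change of 4.40 ± 0.50 (adjusted p 0.000135). Among all genes with no overlap between the groups, the named genes with the largest rises also included Plet1 at 6.08, Ceacam10 at 4.92, Mfi2 (a membrane transferrin) at 4.70, B3galt5 (a galactosyltransferase) at 4.54, Ubd (the ubiquitin-like protein FAT10) at 4.41 and Dmbt1 (a mucosal scavenger receptor) at 4.24 on the log2 scale. Plet1 was at 87.2 CPM in Pectin_PFOS replicate 2, far above the others of its group, and 13.4% of its exonic bases overlap those of Plet1os. The calls of all named genes from Reg3g to Dmbt1 held under every setting tried and without each library in turn.

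**Figure D1:**
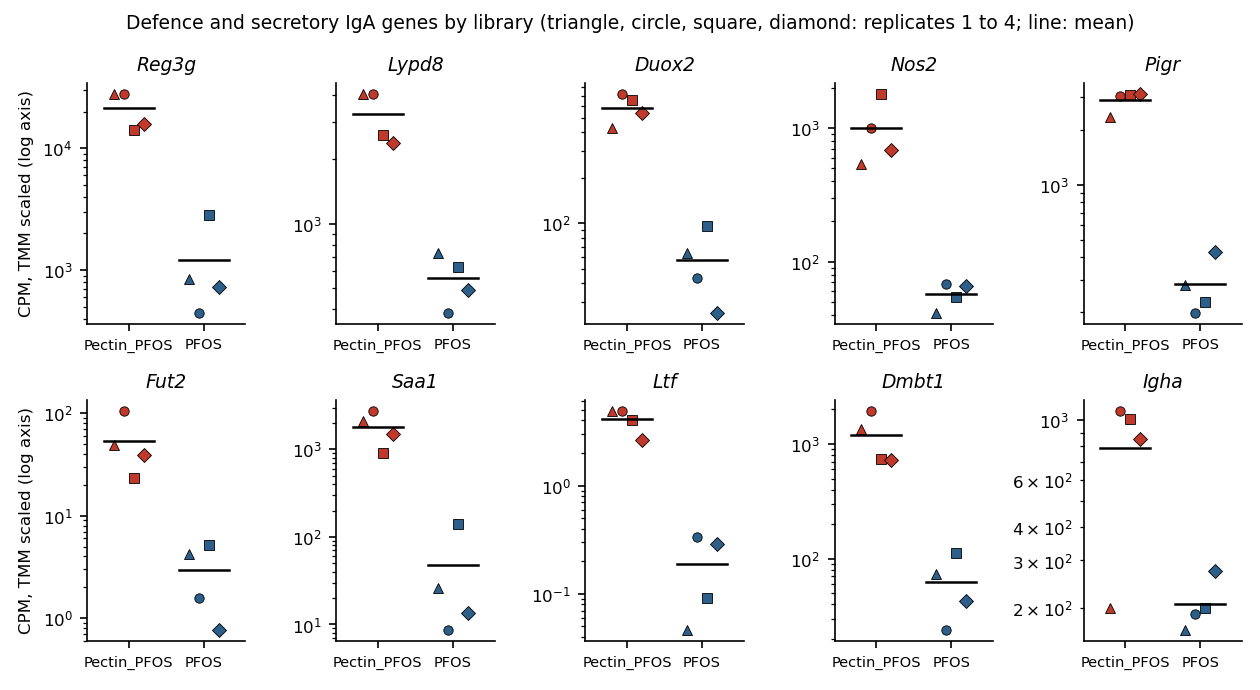
Level of defence and secretory IgA genes, in CPM on a log axis, in each of the 4 Pectin_PFOS libraries (left in each panel) and the 4 PFOS libraries (right), with the group mean as a line and a symbol for each replicate number. All Pectin_PFOS points lie above all PFOS points for every gene but Igha, where Pectin_PFOS replicate 1 lies inside the PFOS range.

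Transcripts of plasma cells were less even between libraries. Of 15 tested members of the secretory IgA and plasma cell list, 6 rose and 0 fell, and the median log2 fold change was 0.83. Igha, the IgA heavy chain constant region, was at 199.7, 1081, 1015 and 851 CPM in Pectin_PFOS, against 165, 189, 199.98 and 274 CPM in PFOS. Pectin_PFOS replicate 1 lay inside the PFOS range, so the groups overlapped (log2 fold change 1.93 ± 0.54, adjusted p 0.0222). The Igha call was lost without Pectin_PFOS replicate 2 or 3, without PFOS replicate 1, 2 or 3, and in the limma tests on TPM. Igkc, the kappa light chain constant region, had a log2 fold change of 2.01 ± 0.56 (adjusted p 0.021), lost without PFOS replicate 1, 2 or 3 and in the limma tests. The list's count was 3 without Pectin_PFOS replicate 2 or PFOS replicate 1, 2 without PFOS replicate 2 or 3, and 3 with library totals. Its 6 calls were Igha, Igkc, Pigr, Xbp1, Prdm1 and Cd38. Pigr, the receptor given above, and Xbp1, also in the chaperone list below, kept their calls in each fit without 1 library. Pigr and Xbp1 were thus the 2 left without PFOS replicate 2 or 3, where Igha and Igkc were lost. Among 110 tested immunoglobulin variable segments, a near-identical family whose split is uncertain, 19 rose, 0 fell and 103 had a positive log2 fold change. In bulk tissue, more cells of a type and more RNA per cell cannot be told apart, here and for every gene group below.

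Interferon-stimulated genes rose together. Of 36 tested members, 22 rose and 0 fell, 34 had a positive log2 fold change, and the median was 1.63. With library totals 18 rose and 1 fell, and leaving out single libraries gave 18 to 21. The promoters of the pair printed here carry the letters searched for as an interferon-stimulated response element, and both genes were higher with pectin. The element was searched as GAAANNGAAA on both strands in the 250 bases before the start given by RefSeq (GRCm38.p6), and its matches are in capitals. Isg15, on the minus strand at chr4:156200819-156201068, held 3 overlapping matches between bases −78 and −57. Oas1a, on the minus strand at chr5:120907526-120907775, held 2 overlapping matches between bases −20 and −5.
Isg15: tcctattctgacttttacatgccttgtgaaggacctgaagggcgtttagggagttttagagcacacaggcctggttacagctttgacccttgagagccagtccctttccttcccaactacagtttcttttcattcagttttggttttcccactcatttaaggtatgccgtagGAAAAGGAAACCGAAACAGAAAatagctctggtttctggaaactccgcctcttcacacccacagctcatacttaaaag
Oas1a: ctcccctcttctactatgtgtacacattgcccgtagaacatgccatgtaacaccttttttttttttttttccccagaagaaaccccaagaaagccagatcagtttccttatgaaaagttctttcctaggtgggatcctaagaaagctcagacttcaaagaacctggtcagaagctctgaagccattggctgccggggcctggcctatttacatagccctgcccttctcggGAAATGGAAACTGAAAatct
The motif stood in 2.98% of 32851 promoters of that length. Of 25 tested list members with an entry, 14 held it, namely 9 of 15 called higher and 5 of 10 not called. A match to these letters is a description of the sequence and not a measured binding site.

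Oas1a (chromosome 5, 120896256 to 120907521) encodes a sensor of double-stranded RNA. Its level was 92.2, 59.9, 74.3 and 44.9 CPM in Pectin_PFOS, against 16.9, 21.01, 19.7 and 18.1 CPM in PFOS, with no overlap (log2 fold change 1.84 ± 0.27, adjusted p 0.000835). Its relative Oasl2 was at 248, 182, 233 and 119 CPM in Pectin_PFOS, against 40.99, 36.6, 43.7 and 52.6 CPM in PFOS (log2 fold change 2.17 ± 0.31, adjusted p 0.000632). Oas genes are a family of close paralogs. Isg15, a ubiquitin-like modifier chosen after its values were seen, was at 64.6, 44.4, 77.9 and 32.6 CPM in Pectin_PFOS, against 7.02, 8.58, 10.8 and 21.3 CPM in PFOS (log2 fold change 2.20 ± 0.45, adjusted p 0.00465). Pectin_PFOS replicate 4 was the lowest of its group for all 3 genes, and the lowest Pectin_PFOS value exceeded the highest PFOS value for each. Usp18, which removes ISG15 from proteins, had a log2 fold change of 2.71 ± 0.48. Zbp1, a sensor of Z-form nucleic acid, stood at 3.03 ± 0.54 and Dhx58, an RNA helicase of the RIG-I family, at 1.63 ± 0.24. These 6 calls held under every setting tried.

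Genes of antigen presentation by MHC class I rose with them. In the list of MHC class I and immunoproteasome genes 12 of 19 tested members rose and 0 fell, with a median log2 fold change of 1.11 and 10 calls with library totals. Tap1 (chromosome 17, 34187553 to 34197225), the peptide transporter subunit, was at 189.6, 219.8, 197 and 127 CPM in Pectin_PFOS, against 34.6, 25.9, 34.7 and 87.4 CPM in PFOS (log2 fold change 2.01 ± 0.35, adjusted p 0.00202). PFOS replicate 4 was the highest of its group and still below every Pectin_PFOS library. The light chain gene B2m had a log2 fold change of 1.31 ± 0.26, the heavy chain gene H2-D1 of 1.37 ± 0.24, the peptide editor gene Tapbp of 1.43 ± 0.24 and the proteasome activator gene Psme1 of 1.02 ± 0.20. H2 heavy chains are near-identical paralogs, and 24.9% of the exonic bases of Tapbp overlap those of Gm19412. In the MHC class II list only Ctss, the protease cathepsin S, was called among 11 tested, at 0.90 ± 0.22, although the median of the list was 1.92. The Ctss call was lost with library totals, in the limma tests and without Pectin_PFOS replicate 1. Class II genes summed to 4534 to 6779 CPM in Pectin_PFOS, against 559 to 3641 CPM in PFOS, and the highest PFOS value was that of replicate 4. Without PFOS replicate 4, 8 class II genes were called, and without Pectin_PFOS replicate 1, 0 were. DESeq2 called 5 class II genes higher, and the limma tests called 6, 6 and, unfiltered, 5.

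NF-kappaB, cytokine and chemokine genes followed in part. Of 25 tested, 10 rose and 0 fell, with a median of 0.68, and 5 rose with library totals. The count was 6 without Pectin_PFOS replicate 3 or without PFOS replicate 1. Nfkb2 (chromosome 19, 46304737 to 46312090), the precursor of a non-canonical NF-kappaB subunit, was at 96.6, 78.9, 139 and 80.99 CPM in Pectin_PFOS, against 53.4, 46.2, 44.5 and 47.1 CPM in PFOS (log2 fold change 1.05 ± 0.17, adjusted p 0.0012), a call lost in the limma tests on TPM. Socs3, a feedback inhibitor of cytokine receptors, had a log2 fold change of 1.98 ± 0.46 (adjusted p 0.00892). Ccl28, a mucosal chemokine that attracts IgA plasma cells, stood at 1.53 ± 0.35, a call lost in the unfiltered limma test. Ccl20, the ligand of CCR6, stood at 4.13 ± 1.07. Pectin_PFOS replicate 3 held 63.1 CPM of Ccl20, and the call was lost without that library, in the unfiltered limma test and in 1 further setting.

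Markers of other immune cells were called less firmly. Their counts stand beside 7.70% higher and 8.33% lower of all genes. Of 19 tested T cell and cytotoxic lymphocyte markers, all had a positive log2 fold change with a median of 1.12, and 3 rose, Gzmb, Itgae and Nkg7, against 1 with library totals. The count ran between 0 and 9 when single libraries were left out. It was 0 without Pectin_PFOS replicate 2 or 3 or PFOS replicate 1, 2 or 3, 1 without Pectin_PFOS replicate 1 or 4, and 9 without PFOS replicate 4. The T cell markers summed to 242 to 420.2 CPM in Pectin_PFOS, against 63.6 to 308 CPM in PFOS. No follicular B cell marker among 16 tested and no myeloid marker among 15 tested passed the threshold in edgeR, with medians of −0.98 and 0.15. Beside the shares of all genes, absent calls in lists of this size do not set these cell types apart. At an unadjusted p under 0.05 there were 0 follicular B cell markers and 1 myeloid marker, the numbers that DESeq2 called as well. Without PFOS replicate 4 the follicular B cell median was 0.06.

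**Figure D2:**
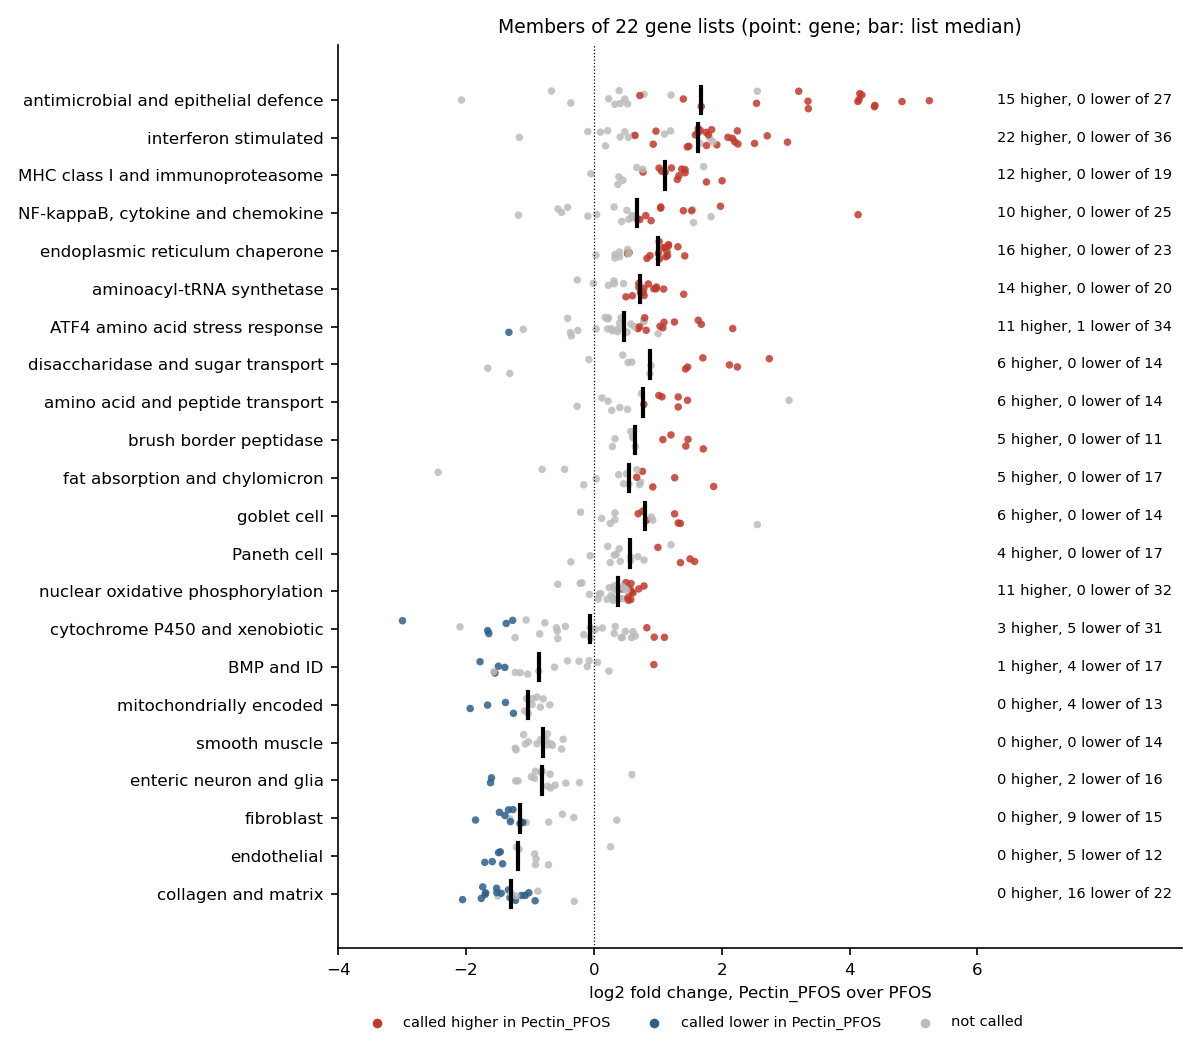
Log2 fold change of Pectin_PFOS over PFOS for the tested members of 22 gene lists, a point for each gene, with genes called higher in red, called lower in blue and not called in grey, and the list's median as a bar. Defence and interferon lists lie to the right with medians of 1.68 and 1.63, and collagen and matrix genes lie wholly to the left with a median of −1.30.

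Genes of protein folding in the endoplasmic reticulum rose with pectin. All 23 tested members of the chaperone list had a positive log2 fold change, 16 rose and 0 fell, with a median of 1.01. With library totals 7 rose, and leaving out single libraries gave 12 to 16. The promoters of Hspa5, Calr and Canx are printed because each holds a full match to the endoplasmic reticulum stress response element, searched as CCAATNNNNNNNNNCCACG on both strands and shown in capitals. Hspa5 lies on the plus strand at chr2:34771840-34772089, with the match at bases −65 to −47. Calr lies on the minus strand at chr8:84846932-84847181, with the match at −162 to −144 on the other strand. Canx lies on the minus strand at chr11:50325674-50325923, with the match at −145 to −127.
Hspa5: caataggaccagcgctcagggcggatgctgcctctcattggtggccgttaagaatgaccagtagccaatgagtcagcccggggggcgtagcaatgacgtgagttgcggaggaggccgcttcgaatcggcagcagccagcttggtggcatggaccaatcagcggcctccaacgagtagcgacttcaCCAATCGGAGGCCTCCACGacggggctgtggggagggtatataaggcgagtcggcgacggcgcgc
Calr: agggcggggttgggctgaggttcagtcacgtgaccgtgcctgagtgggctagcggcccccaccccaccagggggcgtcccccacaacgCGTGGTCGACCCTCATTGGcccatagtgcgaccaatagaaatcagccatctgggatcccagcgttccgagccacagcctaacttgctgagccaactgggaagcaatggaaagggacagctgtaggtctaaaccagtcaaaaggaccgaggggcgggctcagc
Canx: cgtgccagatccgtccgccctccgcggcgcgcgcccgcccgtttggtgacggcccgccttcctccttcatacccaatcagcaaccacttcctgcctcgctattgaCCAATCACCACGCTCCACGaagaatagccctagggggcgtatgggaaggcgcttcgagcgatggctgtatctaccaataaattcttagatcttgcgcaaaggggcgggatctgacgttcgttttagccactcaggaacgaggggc
The deposited gene models of Hspa5 and, by a few bases, Calr begin inside these windows, upstream of the RefSeq start. Only 37 of 32851 promoters, or 0.113%, held this motif. Of 19 tested list members with an entry 8 held it, namely 7 of 14 called higher and 1 of 5 not called.

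Hspa5 (chromosome 2, 34771970 to 34777547) encodes BiP, the main HSP70 of the endoplasmic reticulum. It was at 377, 429.8, 638 and 647 CPM in Pectin_PFOS, against 235, 199, 173 and 352 CPM in PFOS, and PFOS replicate 4 came close to the lowest Pectin_PFOS library without reaching it (log2 fold change 1.12 ± 0.24, adjusted p 0.00514). Calr, the glycoprotein chaperone calreticulin, was at 684, 619, 874 and 947 CPM in Pectin_PFOS, against 322, 249.9, 222 and 373 CPM in PFOS (log2 fold change 1.42 ± 0.27, adjusted p 0.00282). Its membrane-bound partner Canx was at 364, 336, 452 and 478 CPM in Pectin_PFOS, against 211, 134, 172 and 217 CPM in PFOS (log2 fold change 1.15 ± 0.25, adjusted p 0.00565). The groups of these 3 genes did not overlap. Pdia3, a disulfide isomerase that works with both, had a log2 fold change of 1.02 ± 0.19, Creld2 of 1.31 ± 0.28 and the secreted factor gene Manf of 1.17 ± 0.24. Hsp90b1, the HSP90 of this compartment and chosen after its values were seen, stood at 1.02 ± 0.25. Xbp1, the transcription factor of the unfolded protein response, stood at 0.83 ± 0.18. The limma tests on TPM ended the calls of Hspa5, Creld2, Manf, Hsp90b1 and Xbp1, the unfiltered one also that of Calr, and library totals those of Hsp90b1 and Xbp1.

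Aminoacyl-tRNA synthetases, which load tRNAs with amino acids, rose in number. Of 20 cytosolic enzymes tested, 14 rose and 0 fell, with a median log2 fold change of 0.72, and leaving out single libraries gave 10 to 14. With library totals 5 rose and 1 fell. Nars, the asparagine enzyme, was at 262, 377, 338 and 259 CPM in Pectin_PFOS, against 123, 99.98, 110.02 and 133 CPM in PFOS. No values overlapped, and the log2 fold change was 1.41 ± 0.17 (adjusted p 0.000156). The methionine enzyme Mars had a log2 fold change of 1.09 ± 0.19, the glycine enzyme Gars of 0.98 ± 0.17, the lysine enzyme Kars of 0.97 ± 0.17, the arginine enzyme Rars of 0.94 ± 0.15 and the threonine enzyme Tars of 0.73 ± 0.15. All calls but that of Nars were lost in the limma tests, which lack trimmed-mean scaling, and that of Tars also with library totals.

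Targets of ATF4, the transcription factor of amino acid shortage, were called mostly higher. Of 34 tested, 11 rose and 1, the lipoprotein receptor gene Vldlr, fell, with a median of 0.47. With library totals 4 rose and 3 fell. The higher count was 7 without Pectin_PFOS replicate 2, 5 without Pectin_PFOS replicate 3 and 6 without PFOS replicate 3. Asns (chromosome 6, 7675169 to 7693254), asparagine synthetase, was at 38.3, 89.3, 57.5 and 45.4 CPM in Pectin_PFOS, against 14.4, 12.7, 11.6 and 12.6 CPM in PFOS. The PFOS libraries lay close together and all Pectin_PFOS libraries lay above them, with replicate 2 highest (log2 fold change 2.17 ± 0.26, adjusted p 0.00017). The mitochondrial folate enzyme gene Mthfd2 had a log2 fold change of 1.68 ± 0.27 and the serine synthesis gene Psat1 of 1.63 ± 0.36, and both calls held under every setting. Atf5, itself a stress-responsive transcription factor, stood at 1.10 ± 0.23, a call lost in the limma tests. The Asns promoter, on the minus strand at chr6:7693210-7693459, is printed for its match at bases −23 to −15 to TGATGNAAN, the C/EBP-ATF response element searched on both strands.
Asns: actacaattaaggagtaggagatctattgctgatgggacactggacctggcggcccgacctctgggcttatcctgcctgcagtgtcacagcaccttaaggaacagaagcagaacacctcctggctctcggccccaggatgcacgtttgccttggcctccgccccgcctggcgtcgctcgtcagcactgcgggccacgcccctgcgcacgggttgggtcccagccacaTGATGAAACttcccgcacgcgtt
The deposited gene model of Asns begins inside this window, upstream of the RefSeq start. This motif stood in 3.44% of 32851 promoters. It was held by 9 of 29 tested list members with an entry, by 3 of 9 called higher and by 5 of 19 not called.

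**Figure D3:**
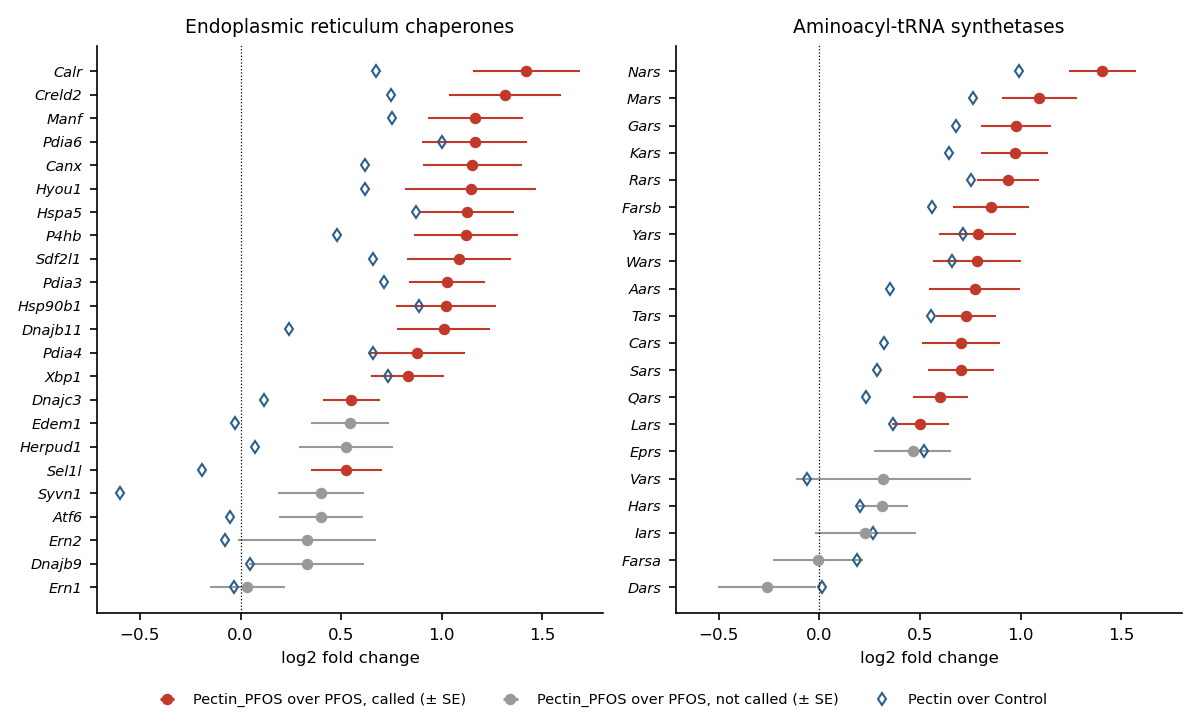
Log2 fold change of each tested chaperone gene of the endoplasmic reticulum (left) and each tested aminoacyl-tRNA synthetase (right), with filled points for Pectin_PFOS over PFOS (bars: SE, red where called and grey where not) and open diamonds for Pectin over Control. Every chaperone point of Pectin_PFOS over PFOS lies right of 0, with Calr highest at 1.42, and Nars is highest among the synthetases at 1.41.

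Digestive genes of the brush border rose in part. Of 11 tested brush border peptidase genes all had a positive log2 fold change, 5 rose and 0 fell, with a median of 0.65, and the count was 5 in every leave-one-out fit and with library totals. Mep1b, a meprin subunit, was at 3929.6, 3070.3, 2513 and 2247 CPM in Pectin_PFOS, against 1118, 771, 754 and 947 CPM in PFOS (log2 fold change 1.71 ± 0.25, adjusted p 0.000835). Anpep (chromosome 7, 79821803 to 79848210), aminopeptidase N and among the most abundant transcripts here, was at 38291, 19576, 16077 and 15251 CPM in Pectin_PFOS, against 12895, 6209, 6495 and 6544 CPM in PFOS. Replicate 1 was the highest of its group in both, and no values overlapped (log2 fold change 1.47 ± 0.35, adjusted p 0.00981). Ace, the angiotensin-converting dipeptidase, had a log2 fold change of 1.44 ± 0.30, Dpp4, dipeptidyl peptidase 4, of 1.21 ± 0.25, and the glutamyl aminopeptidase gene Enpep of 1.08 ± 0.27. The limma tests ended the calls of Anpep and Enpep, and the unfiltered one that of Dpp4.

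Of 14 tested genes for disaccharidases and sugar transport, 6 rose and 0 fell, with a median of 0.88 and 4 calls with library totals. Slc5a1 (chromosome 5, 33104219 to 33162870), the sodium-glucose cotransporter SGLT1, was at 3042, 1726, 3806 and 2912 CPM in Pectin_PFOS, against 989, 868, 655 and 1012 CPM in PFOS (log2 fold change 1.70 ± 0.29, adjusted p 0.00162). Slc2a5 (chromosome 4, 150119283 to 150144169), the fructose transporter GLUT5, was at 343, 84.8, 492 and 443 CPM in Pectin_PFOS, against 52.2, 39.2, 42.2 and 69.8 CPM in PFOS. Pectin_PFOS replicate 2 was well below the other 3 of its group, yet above every PFOS library (log2 fold change 2.74 ± 0.60, adjusted p 0.00704). The maltase-glucoamylase gene Mgam had a log2 fold change of 1.43 ± 0.37, a call lost in the limma tests.

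Transporters of amino acids showed 6 of 14 tested members higher and 0 lower, with a median of 0.76, but 1 of them with library totals. Slc7a7, a basolateral cationic amino acid transporter, had a log2 fold change of 1.02 ± 0.21, a call lost in the limma tests. In fat absorption 5 of 17 tested genes rose and 0 fell, with library totals 2 and 1, and 1 rose without Pectin_PFOS replicate 1 or 3 or without PFOS replicate 1, 2 or 3. Mttp, which loads lipid on nascent chylomicrons, stood at 1.26 ± 0.29 (adjusted p 0.00818) and held under every setting. Iron and vitamin uptake genes rose in 2 of 15 cases, beside 7.70% of all genes, and with library totals 1 rose and 2 fell. Slc11a2, the apical iron transporter DMT1, was among the higher at 1.28 ± 0.26. Bile acid transport genes rose in 2 of 12 cases, with library totals 1 higher and 1 lower. Abcc3, a basolateral pump for organic anions and bile acids, stood at 1.80 ± 0.37. The limma tests ended the calls of Slc11a2 and Abcc3. Of 11 tested genes for short-chain fatty acid sensing and transport, 3 rose: the monocarboxylate transporter genes Slc5a8 at 1.40 ± 0.27 and Slc16a3 at 1.59 ± 0.40, and Pyy, the appetite-suppressing gut hormone, at 1.19 ± 0.26. The call of Slc16a3 was lost in the unfiltered limma test, and the median of that list was 0.31, negative with library totals at −0.06.

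Among cell type markers of the epithelium, calls were higher for 4 types, enterocyte, goblet, Paneth and enteroendocrine cells, and not for tuft cells. The counts stand beside 7.70% higher and 8.33% lower of all genes. Those of tuft cells lay near these shares and do not set that type apart. Absorptive enterocyte markers rose in 4 of 14 cases, Vil1, Anpep, Cdhr5 and Slc5a1, with a median of 0.63 and a summed level of 46756 to 86089 CPM in Pectin_PFOS, against 28733 to 55426 CPM in PFOS. Their count was 2 without Pectin_PFOS replicate 1, without PFOS replicate 3 or with library totals. Epcam, the adhesion molecule of all epithelial cells, was not called, at 5540.2, 3427, 3015 and 2532 CPM in Pectin_PFOS and 2993, 3180.1, 2213 and 1984 CPM in PFOS. Of 14 goblet cell markers 6 rose, 3 without Pectin_PFOS replicate 1 and 2 with library totals. Fcgbp, a mucus-binding protein gene, was at 6214, 5341, 5725 and 6290.3 CPM in Pectin_PFOS, against 2349, 1654, 2067 and 3152 CPM in PFOS (log2 fold change 1.35 ± 0.23, adjusted p 0.0015). Clca1, a secreted mucus protease gene, stood at 1.26 ± 0.27, and the gel-forming mucin gene Muc2 at 1.32 ± 0.34. The limma tests ended the calls of Fcgbp and Muc2, and library totals that of Muc2. Of 17 Paneth cell markers 4 rose, among them Defa21 at 1.58 ± 0.35, one of a near-identical family of alpha-defensins, a call lost in the unfiltered limma test. The Paneth count was 1 without Pectin_PFOS replicate 3 or with library totals, and 2 without PFOS replicate 1, 2 or 4. Enteroendocrine calls, 3 of 17, were Pyy, the hormone cholecystokinin gene Cck at 1.54 ± 0.30 and the tachykinin gene Tac1 at 2.97 ± 0.67, with 3 higher and 1 lower with library totals. Of 12 tuft cell markers 0 rose and 1 fell, the cyclooxygenase gene Ptgs1 at −0.94 ± 0.19, with a median of −0.04 and 2 lower with library totals.

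Metabolic lists had calls in both directions, to be read against 7.70% higher and 8.33% lower of all genes. PPAR-alpha and fatty acid oxidation genes rose in 5 of 31 cases, 0 with library totals, where the list's median of 0.16 became −0.23. That higher count was 1 without Pectin_PFOS replicate 1 or PFOS replicate 1 or 3, 2 without Pectin_PFOS replicate 3, and 3 without Pectin_PFOS replicate 2 or PFOS replicate 2. The 1 that fell was Pdk4 (chromosome 6, 5483351 to 5496309), a kinase that shuts the entry of pyruvate into the citric acid cycle. It was at 23.9, 6.15, 6.88 and 8.09 CPM in Pectin_PFOS, against 25.6, 95.8, 20.3 and 45.6 CPM in PFOS, and Pectin_PFOS replicate 1 overlapped the PFOS libraries (log2 fold change −2.06 ± 0.47, adjusted p 0.00791). Cytochrome P450 and xenobiotic genes went both ways, 3 higher and 5 lower of 31, among the lower Cyp1b1, a P450 of the aryl hydrocarbon receptor pathway, at −1.66 ± 0.35 and the ABC transporter gene Abcc6 at −1.64 ± 0.36. Without Pectin_PFOS replicate 1 that list had 0 higher, without PFOS replicate 3 it had 1, and 3 were lower without Pectin_PFOS replicate 3 or 4 or without PFOS replicate 1. With library totals 1 was higher and 9 were lower. Of 17 tested retinol and vitamin A genes 1 rose and 1 fell, with library totals 0 and 5. The lower one was Cyp26b1, which degrades retinoic acid, at −2.09 ± 0.45. Among 29 antioxidant genes 4 rose and 1 fell, with library totals 1 and 6, and the median of 0.25 became −0.12. Gsr, glutathione reductase, was at 165, 204, 188 and 179 CPM in Pectin_PFOS, against 76.2, 54.3, 60.8 and 83.4 CPM in PFOS, without overlap (log2 fold change 1.42 ± 0.23, adjusted p 0.0012).

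Nuclear and mitochondrial genes of oxidative phosphorylation lay on opposite sides of 0 with this scaling. Nuclear genes rose in 11 of 32 cases with a median of 0.38, but in 0 cases with library totals, where the median was −0.01 and 2 fell. Their count was 3 without Pectin_PFOS replicate 1 or PFOS replicate 3, 4 without PFOS replicate 2, 5 without Pectin_PFOS replicate 3, 6 without PFOS replicate 1 and 7 without Pectin_PFOS replicate 2. All 13 mitochondrially encoded genes had a negative log2 fold change with a median of −1.03, and 4 fell. With this scaling they summed to 31108 to 35041 CPM in Pectin_PFOS, against 32822 to 71584 CPM in PFOS. PFOS replicate 1, at 32822 CPM, lay inside the Pectin_PFOS range, so the sums overlapped. mt-Nd3, a complex I subunit gene, was at 168, 202, 228 and 126 CPM in Pectin_PFOS, against 326, 582, 840.4 and 1020.03 CPM in PFOS (log2 fold change −1.94 ± 0.39, adjusted p 0.00432), and it fell under every setting. The mitochondrial count was 12 with library totals, 1 when Pectin_PFOS replicate 1, 2 or 4 or PFOS replicate 2, 3 or 4 was left out, and 2 without Pectin_PFOS replicate 3. The share of counts from these genes is given above by group, and its part in the other results was not tested. Of 18 glycolysis and hypoxia genes 6 rose, 1 with library totals. Cholesterol synthesis genes rose in 4 of 25 cases, in 0 with library totals or without Pectin_PFOS replicate 1, in 1 without PFOS replicate 2, 3 or 4 and in 2 without Pectin_PFOS replicate 2.

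Genes of the connective tissue were lower with pectin. All 22 tested members of the collagen and matrix list had a negative log2 fold change and 16 fell, against 8.33% of all genes, with a median of −1.30. The members summed to 125 to 483 CPM in Pectin_PFOS, against 681 to 987 CPM in PFOS. The number of calls rested on single libraries. It was 3 without Pectin_PFOS replicate 1, 5 without Pectin_PFOS replicate 2, 4 without PFOS replicate 3, 9 without PFOS replicate 2 and 10 without PFOS replicate 4. The direction did not change, with medians between −1.51 and −0.99 over these fits, and 21 fell with library totals. Col6a3 (chromosome 1, 90765923 to 90843971), a collagen VI chain, was at 2.50, 9.37, 14.1 and 15.9 CPM in Pectin_PFOS, against 27.7, 29.97, 45.7 and 33.5 CPM in PFOS. Pectin_PFOS replicate 1 was the lowest of the 8, and the other 3 also lay below every PFOS library (log2 fold change −1.70 ± 0.39, adjusted p 0.00867). The laminin gene Lamc1 stood at −1.52 ± 0.33 (adjusted p 0.00666), and both calls held under every setting.

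Fibroblast markers fell in 9 of 15 cases, with a median of −1.16, 12 calls with library totals and a sum of 200.3 to 398 CPM in Pectin_PFOS, against 600.1 to 818 CPM in PFOS. Without Pectin_PFOS replicate 1, 4 fell. Pdgfra (chromosome 5, 75152292 to 75198215), a platelet-derived growth factor receptor of fibroblasts, was at 3.49, 8.20, 14.7 and 14.6 CPM in Pectin_PFOS, against 32.7, 38.5, 43.5 and 33.7 CPM in PFOS (log2 fold change −1.85 ± 0.35, adjusted p 0.00326). The matricellular gene Postn stood at −1.39 ± 0.34 and Islr at −1.11 ± 0.28. Interstitial cells of Cajal, the pacemakers of gut movement, had 3 of 3 tested markers lower, with library totals as well: Kit, Ano1 and Etv1, at −1.32 ± 0.30 for the chloride channel gene Ano1 and −1.60 ± 0.40 for the transcription factor gene Etv1. The call of Kit was lost without Pectin_PFOS replicate 1 or PFOS replicate 3. Endothelial markers fell in 5 of 12 cases, in 0 without Pectin_PFOS replicate 1 or 2 or PFOS replicate 2 or 3, in 1 without PFOS replicate 1 and in 6 with library totals. Erythrocyte genes, near-identical globins in the main, fell in 3 of 4 cases, with library totals as well. The erythrocyte count was 0 without Pectin_PFOS replicate 1, 3 or 4 or PFOS replicate 2 and 1 without Pectin_PFOS replicate 2. No smooth muscle marker of 14 tested was called by edgeR, although 5 were lower at an unadjusted p under 0.05, DESeq2 called 3, library totals gave 4 and all had a negative log2 fold change with a median of −0.79. The smooth muscle myosin gene Myh11 stood at −1.10 ± 0.45 with an adjusted p of 0.0974. The smooth muscle list summed to 1242 to 3186 CPM in Pectin_PFOS, against 3047 to 5295 CPM in PFOS. Medians of enterocyte and fibroblast markers thus lay on opposite sides of 0 in the same libraries, with library totals as well, and the part of tissue makeup in the other gene groups was not tested.

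**Figure D4:**
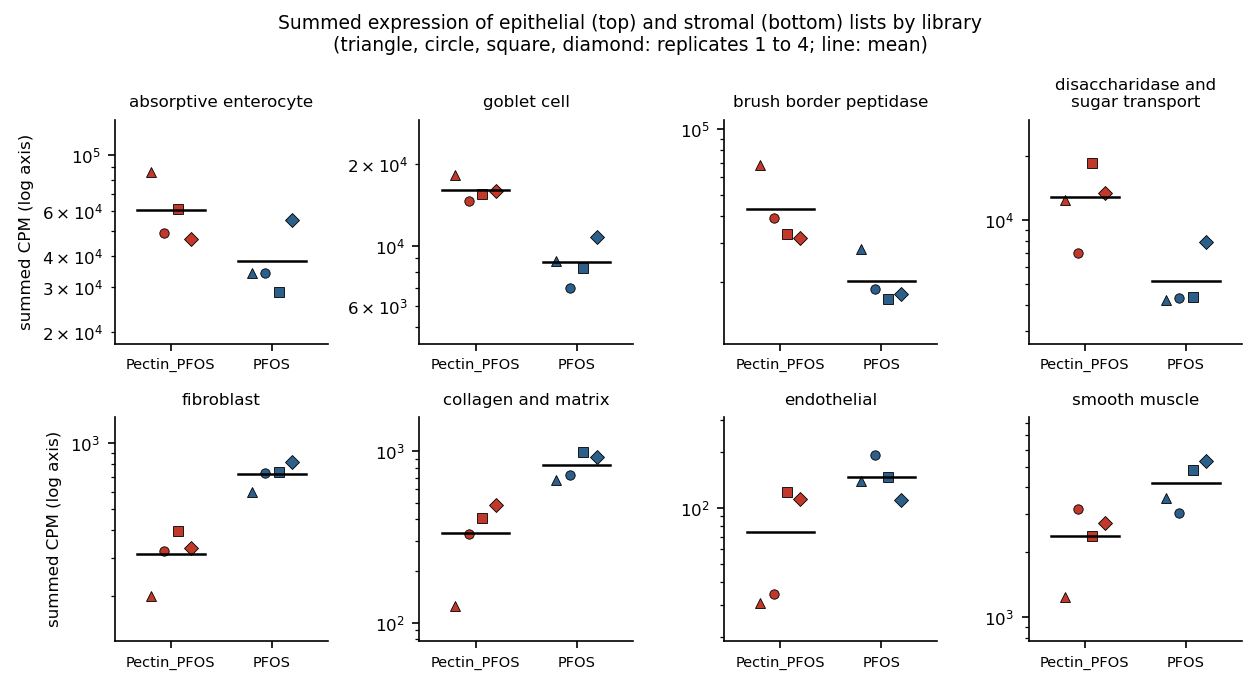
Summed CPM, on a log axis, of epithelial lists (top) and stromal lists (bottom) in the 4 Pectin_PFOS libraries (left in each panel) and the 4 PFOS libraries (right), with the group mean as a line and a symbol for each replicate number. Fibroblast and collagen sums lie wholly lower in Pectin_PFOS, with replicate 1 (triangle) lowest, while enterocyte, sugar, endothelial and smooth muscle sums overlap between the groups.

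Among single genes with no overlap, the named genes with the largest falls were mostly low in level. Nkx3-2 (chromosome 5, 41761483 to 41764501), a homeobox transcription factor of gut mesenchyme, was at 0.198, 0.351, 0.225 and 0.261 CPM in Pectin_PFOS, against 1.66, 2.31, 2.55 and 2.30 CPM in PFOS (log2 fold change −3.06 ± 0.43, adjusted p 0.000632). The potassium channel gene Kcna1 stood at −2.79 ± 0.55, the aggrecan-cleaving protease gene Adamts5 at −2.78 ± 0.67 and the fibroblast growth factor gene Fgf7 at −2.69 ± 0.64. The glial cadherin gene Cdh19 stood at −2.63 ± 0.50, the sodium channel gene Scn7a at −2.52 ± 0.46 and Myocd, a coactivator of smooth muscle genes, at −2.44 ± 0.56. Of 17 tested BMP and ID genes 4 fell, beside 8.33% of all genes, with 2 lower without Pectin_PFOS replicate 1 and 12 with library totals. In that list 1 gene, Bmp2, rose, a call lost in the limma tests. Bmp1, the procollagen C-proteinase, was at 48.7, 22.01, 22.2 and 32.2 CPM in Pectin_PFOS, against 118, 112, 82.9 and 52.5 CPM in PFOS (log2 fold change −1.55 ± 0.32, adjusted p 0.00504). Smad9, a mediator of BMP signals, stood at −1.78 ± 0.36. Stem cell and Wnt genes fell in 3 of 22 cases and rose in 2, beside 8.33% lower and 7.70% higher of all genes. These counts lie near those shares and do not set the list apart. With library totals 9 fell and 0 rose. Among the lower were Lrig1, a negative regulator of growth factor receptors, at −1.18 ± 0.28 and the Wnt target Tnfrsf19 at −1.69 ± 0.32. The clock-linked transcription factor genes Hlf and Rora stood at −1.64 ± 0.33 and −1.43 ± 0.31. They were the 2 lower of 19 tested circadian clock genes, of which 0 rose, beside 8.33% lower of all genes. The median of that list was −0.09, and 4 fell with library totals. Every fall given here with its SE was called under every setting in which the gene was tested, which for Kcna1 and Adamts5 leaves out the filtered limma tests. Library totals and the limma tests shift the median of all genes downward, so a fall kept there carries little weight.

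Further lists held 3 calls or fewer in a direction, beside 7.70% higher and 8.33% lower of all genes. Tight junction genes rose in 3 of 17 cases, in 0 with library totals or without Pectin_PFOS replicate 1 or PFOS replicate 3 and in 1 without Pectin_PFOS replicate 2. Cell cycle genes rose in 2 of 26 cases, Aurka and Ccne1, in 3 without Pectin_PFOS replicate 1, in 1 when any other library was left out and in 0 with library totals, and their median was 0.61. Fatty acid synthesis genes fell in 2 of 15 cases, the fatty acid desaturase gene Fads1 at −0.90 ± 0.30 and the glycerol-3-phosphate acyltransferase gene Gpam at −1.15 ± 0.27, and rose in 1, the elongase gene Elovl6 at 0.86 ± 0.27, against 4 and 0 with library totals. Leaving out any library but Pectin_PFOS replicate 4 gave 1 lower, and the higher call was kept only without Pectin_PFOS replicate 3 or PFOS replicate 1. Colon markers rose in 3 of 8 tested cases, Saa1, Slc5a8 and Car4, a membrane carbonic anhydrase gene at 2.82 ± 0.50, in every fit without 1 library and with library totals. Ileum markers rose in 2 of 11 cases, Pyy and the bile acid transporter gene Slc51a at 0.79 ± 0.27, of whose exonic bases 17.7% overlap those of Pcyt1a, and in 1 case with library totals. Enteric neuron and glia markers fell in 2 of 16 cases, among them the glial transcription factor gene Sox10 at −1.60 ± 0.51, in 0 without Pectin_PFOS replicate 1 or 2 or PFOS replicate 3 in 1 without PFOS replicate 1 or 2 and in 4 with library totals. Cytosolic ribosomal protein genes rose in 1 of 33 cases, and their median of 0.25 became −0.12 with library totals. No gene of the ribosome biogenesis list among 20 tested was called by edgeR, and 1 in each direction had an unadjusted p under 0.05, while DESeq2 called 1 lower.

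The same fibres were set side by side without PFOS, in groups that share no sample with the exposed ones. Between Pectin and Control 313 genes differed, which is 1.99% of the genes, 162 higher (1.03%) and 151 lower (0.958%). That number ran between 51, without Pectin replicate 3, and 530, without Control replicate 4, and was 48 when only the groups compared were fitted and 126 with library totals. It was 92 and 83 without Pectin replicates 1 and 2, 183 without Pectin replicate 4, and 112, 137 and 199 without Control replicates 1, 2 and 3. Of these, 165 were also called between Pectin_PFOS and PFOS, all with the same sign, which is 52.7% of the 313 and 6.53% of the 2526. Of the 2526 genes, 87.5% had the same sign without PFOS, against 67.6% of all genes tested. Defence genes had a median of 1.68 with PFOS and 1.43 without it, with 15 and 4 called higher. Interferon genes had medians of 1.63 with PFOS and 0.74 without it, with 22 and 2 called higher. MHC class I genes had medians of 1.11 and 0.25, endoplasmic reticulum chaperones of 1.01 and 0.62, aminoacyl-tRNA synthetases of 0.72 and 0.44, and secretory IgA and plasma cell genes of 0.83 and 1.65, with PFOS and without it. Brush border peptidase genes had medians of 0.65 and −0.34, sugar genes of 0.88 and −0.55, and collagen and matrix genes of −1.30 and −0.27, with PFOS and without it in each pair.

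The difference between the pectin effects with and without PFOS was tested for every gene in the same fit. No gene passed, 0.00% of the genes, at a lowest adjusted p of 0.159, while 1953 genes had an unadjusted p under 0.05, and DESeq2 called 135. Calls made with PFOS and not without it are thus not shown to differ between the exposures. The smallest p belonged to Nfkb2, at 1.05 ± 0.17 with PFOS and −0.31 ± 0.16 without it, a difference of 1.35 ± 0.23 (adjusted p 0.159). Next in order of p came Tapbp at a difference of 1.67 ± 0.34, the pyruvate kinase gene Pklr at 1.55 ± 0.31, Chst8 at 2.15 ± 0.44 and the nucleotidase gene Entpd2 at 1.29 ± 0.26, each with an adjusted p of 0.26. In Pklr 22% and in Entpd2 28.8% of exonic bases overlap those of Hcn3 and Npdc1. Slc2a5 was at 2.74 ± 0.60 with PFOS and −0.86 ± 0.57 without it, a difference of 3.60 ± 0.82 (adjusted p 0.26). Slc5a1 was at 1.70 ± 0.29 with PFOS and −0.08 ± 0.28 without it, a difference of 1.78 ± 0.40 (adjusted p 0.26). For Duox2 the values were 3.35 ± 0.48 with PFOS and 2.15 ± 0.45 without it, and for Nos2 they were 4.13 ± 0.58 and 1.39 ± 0.52. Gsr, at 1.42 ± 0.23 with PFOS and 1.35 ± 0.23 without it, Bmp1, at −1.55 ± 0.32 and −2.23 ± 0.33, and Abcc6, at −1.64 ± 0.36 and −2.04 ± 0.37, lay on the same side of 0 in both.

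**Figure D5:**
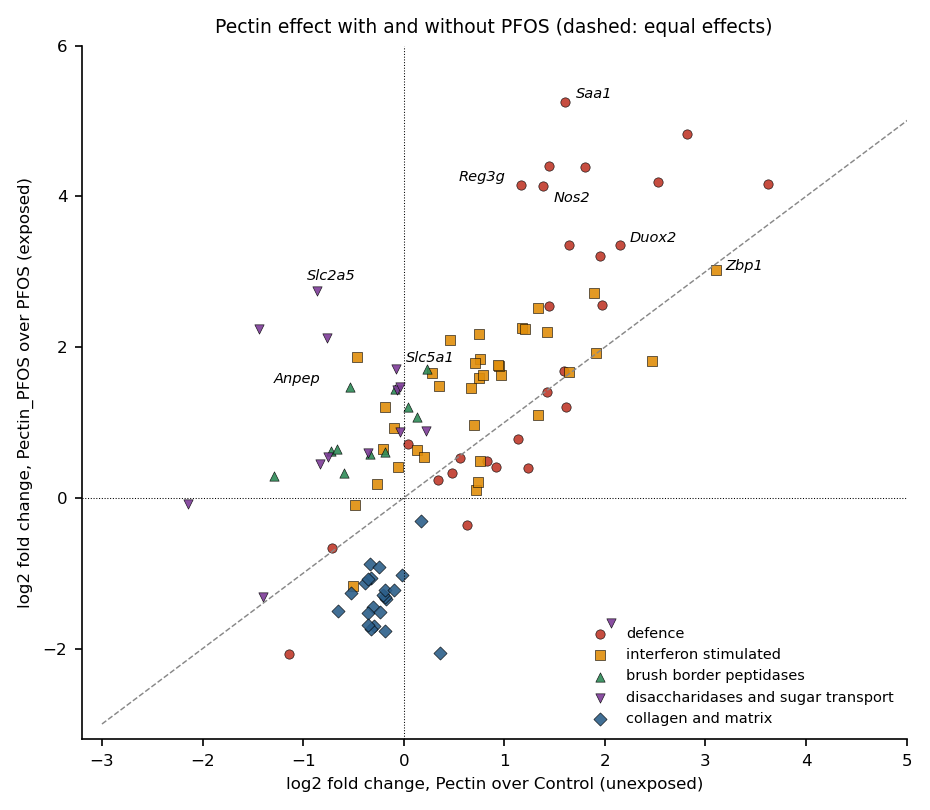
Log2 fold change of Pectin_PFOS over PFOS (vertical) against that of Pectin over Control (horizontal), a point for each tested member of 5 gene lists, with the dashed line marking equal values. Most defence points lie above the dashed line, collagen and matrix points lie below 0 on the vertical axis and near 0 on the horizontal one, and Slc2a5 lies at 2.74 vertically and −0.86 horizontally.

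The fermentable fibres were compared directly under PFOS, as Pectin_PFOS against Inulin_PFOS. No gene passed, 0.00% of the genes, at a lowest adjusted p of 0.0584, while 2572 genes had an unadjusted p under 0.05. DESeq2 called 552, so the absence of calls depends on the test and the model chosen and does not show that the fibres act alike. The genes of smallest p were C1qtnf3 at −2.49 ± 0.45, Rpph1 at −2.77 ± 0.51, Tmem256 at −1.49 ± 0.26, Tmem47 at −1.83 ± 0.33 and Znhit3 at −1.29 ± 0.22, all lower in Pectin_PFOS with an adjusted p of 0.0584, and 73% of the exonic bases of Rpph1 overlap those of Ccnb1ip1. Reg3g differed by −0.18 ± 0.83 between Pectin_PFOS and Inulin_PFOS, Nos2 by 0.81 ± 0.56, Duox2 by 0.08 ± 0.47 and Slc2a5 by 2.38 ± 0.66. In defence genes the median of Pectin_PFOS over Inulin_PFOS was −0.26, in interferon genes 0.30 and in collagen and matrix genes −0.96.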

How the data were processed

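RNA of intestinal tissue was sequenced (BGI DNBSEQ stranded libraries, per the labels' protocols) in 22 libraries, 8 of them described here. Per the submitters' processing notes, the tools were HISAT and Bowtie2 and the genome build GRCm39; for their versions, the counter and the use of strand, the sources used here give nothing. The deposited coordinates were those of GRCm38 (38860 of 46005 genes shared with GENCODE M21 had identical start and end). The authors deposited estimated counts per gene, not normalized, and TPM (length-scaled transcript levels). The counts were rounded to whole numbers. Groups and replicate numbers came from the sample titles.

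All 22 libraries were fitted with a mean per group in edgeR 4.0.16 (R 4.3.3): filterByExpr, trimmed-mean scaling, robust quasi-likelihood F test and Benjamini-Hochberg adjustment over 15763 genes. The biological coefficient of variation was 31.9%. Each standard error is the size of the log2 fold change over the root of its F value. CPM are counts scaled to library size. The fit was also run on simulated counts, with few genes changed and as many raised as lowered. That run could not probe the shift in scaling between the groups. Alternatives were other scalings and filters, DESeq2 1.42.0, the groups compared alone, replicate blocks, limma 3.58.1 on log2(TPM + 1) and log2(TPM + 0.1), and leaving out each library. The limma fits used TPM as deposited, without trimmed-mean scaling. Sequences are from RefSeq (GRCm38.p6).

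The 56 gene lists and the members were chosen with earlier results of these data known. Named genes are, for Pectin_PFOS against PFOS, up to 15 a direction with the largest called change, averaging 1 CPM or more and not overlapping, up to 6 called members of each list by p (the first 2 tested where none was called), and the 5 of smallest p where few passed. Genes of several lists, such as Anpep and Pigr, count under each. Epcam, Fabp6, Reg3b, Isg15 and Hsp90b1 were named after their values were seen, and Vldlr is named as a single call.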

Additional observations from a re-analysis of the deposited data

Results flagged for a closer look

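Within each group of 4 libraries, named genes, list sums and library measures were searched for a highest or lowest library far from the others. Dixon's test at 95% was used, which sets the gap to the nearest library against the group's range. Of 378 such sets of 4 values, 36 stood out. Chance gives about 1 in 20 for normally spread values, which CPM that are not on a log scale need not be. PFOS replicate 4 held 13 of them, Pectin_PFOS replicate 2 held 6, Pectin_PFOS replicate 1 held 5, PFOS replicate 3 held 4, Pectin_PFOS replicate 3 held 3, PFOS replicates 1 and 2 held 2 each and Pectin_PFOS replicate 4 held 1.

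In Pectin_PFOS, replicate 1 was far below the others for Pigr (2354 CPM), Col3a1 (15.7 CPM), Lrig1 (11.7 CPM) and the summed cell cycle genes (160.6 CPM), and far above them for Pdk4 (23.9 CPM). Replicate 2 was far above for Saa3 (21.3 CPM), Plet1 (87.2 CPM), Mars (53.2 CPM), Tars (72.8 CPM) and Tac1 (56.5 CPM), and far below for Pdia3 (352 CPM). Replicate 3 was far above for Ccl20 (63.1 CPM), Ldha (1905 CPM) and Bmp2 (76.1 CPM). Replicate 4 was far below for B2m (1073 CPM).

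In PFOS, replicate 4 was far above the others for Ubd (25.01 CPM), B2m (947 CPM), Tap1 (87.4 CPM), Ace (675 CPM), Gzmb (23.7 CPM) and Adamts5 (6.37 CPM), and far below for Cdh19 (2.35 CPM). It was also far above for the summed MHC class II genes (3641 CPM), antioxidant genes (5185 CPM), PPAR-alpha genes (34249.9 CPM), sugar genes (7878 CPM), enteroendocrine genes (389 CPM) and T cell genes (308 CPM). Replicate 3 was far above for Reg3g (2834 CPM), Saa1 (142.00 CPM), Kit (26.4 CPM) and the summed stem cell genes (406 CPM). Replicate 1 was far above for Anpep (12895 CPM) and the summed brush border peptidase genes (28134 CPM). Replicate 2 was far above for Hbb-bs (98.8 CPM) and the summed erythrocyte genes (153.2 CPM).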

How the results depend on the processing

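Of 128 genes called between Pectin_PFOS and PFOS and followed through the alternatives, 76 were called under every one, 114 in each fit without 1 library, and 0 changed sign. Some of the followed genes, such as Reg3a, are not named above. Some called genes named above, such as Vil1 and Elovl6, were not followed. Library totals alone gave 3829 calls between Pectin_PFOS and PFOS (299 higher, 3530 lower), against 2526 (1213 and 1313). The limma tests, also without trimmed-mean scaling, gave 3130 (225 and 2905), 3087 (216 and 2871) and, unfiltered, 3468 (193 and 3275). Leaving out single libraries gave 1265 to 2478: 1265 without PFOS replicate 3, 1283 without Pectin_PFOS replicate 1, 1538 without PFOS replicate 2 and 1631 without Pectin_PFOS replicate 2. Between Pectin_PFOS and Inulin_PFOS, where 0 were called, library totals gave 8, the groups compared alone 6, DESeq2 552, limma 5, 6 and 4, and the blocks by bio rep number and by title number 648 and 457; leaving out single libraries gave 0 to 24. For the difference of the pectin effects DESeq2 gave 135, and leaving out single libraries 0 to 4. Between Pectin and Control, with 313, library totals gave 126, no filter 167, DESeq2 857, the groups compared alone 48, the title number block 206 and limma 88, 87 and 26, and leaving out single libraries 51 to 530. The cause of these shifts was not tested. The labels state no pairing of Pectin_PFOS and PFOS libraries, and the replicate numbers showed no clear one. Libraries of the same bio rep number correlated at 0.22, −0.02, 0.03 and 0.06 in their deviations from the group means. Not every library correlated best with its own number. With 4 libraries a group this check cannot exclude a pairing. With the bio rep number as a block 2985 genes were called, and with the title number 1945, without Ccl20. With 4 libraries a group and a coefficient of variation of 31.9%, smaller changes of variable or low genes may have gone undetected.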
